A study of Homo sapiens with 3 samples.

Results

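The 7 mature miRNAs described here are hsa-miR-1261, hsa-miR-301a-5p, hsa-miR-328-3p, hsa-miR-340-3p, hsa-miR-139-5p, hsa-miR-4510 and hsa-miR-6765-3p (written below without the species prefix), a set of miRNAs that stood low after plasma exposure of melanoma cells. They are 7 of the 2588 human miRNAs listed in the count tables. They were picked by name because, after 5 min of plasma, they stood below the untreated or the 3 min library, and all are listed in the 3 count tables. miR-6765-3p meets this on raw counts but not on the TMM-scaled levels used below, and on scaled levels its sign at 5 min depends on the scaling. Those values chose them, so their levels below are a description and no test supports them. The study exposed the established human melanoma line SK-MEL-2 to a nonthermal plasma jet, which blows ionised gas onto the culture without strong heating. Its groups were untreated control cells, cells exposed for 3 min and cells exposed for 5 min, all sampled on Day 2. Each group was 1 small-RNA library, so no ratio has a replicate check, and nothing here tells a difference between exposures from one between 2 dishes or 2 library preparations. Intervals are exact 95% intervals for counting error only.

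A miRNA gene is transcribed as part of a longer RNA, from which a hairpin is cut out. Dicer then cuts the hairpin into a duplex of a 5p and a 3p arm, and usually 1 arm is kept in an Argonaute protein while the other is degraded. The kept arm pairs with mRNAs mainly through its seed, bases 2 to 8. Many hairpins lie in introns of protein-coding genes and can be made from the host gene's transcript.

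The mature sequences are shown because the 7 share no seed and because 1 of them closely resembles an abundant let-7 miRNA. They are RefSeq's, on GRCh38.p14, written 5′ to 3′ with the seed in capitals. The last line is let-7c-5p, for comparison.
miR-1261: aUGGAUAAggcuuuggcuu
miR-301a-5p: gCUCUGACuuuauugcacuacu
miR-328-3p: cUGGCCCUcucugcccuuccgu
miR-340-3p: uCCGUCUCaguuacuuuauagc
miR-139-5p: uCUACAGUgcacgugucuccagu
miR-4510: uGAGGGAGuaggauguaugguu
miR-6765-3p: uCACCUGGcuggcccgcccag
let-7c-5p: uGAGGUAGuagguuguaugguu

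Of the listed miRNAs with a RefSeq sequence, miR-6127, miR-6129 and miR-6130 share the seed of miR-4510, and miR-6827-3p shares that of miR-340-3p. Among these relatives miR-6127, miR-6129 and miR-6827-3p were at 0 in all 3 libraries. miR-6130 had 13 counts in the untreated library, 12 at 3 min and 8 at 5 min. The GC content of the 7 ran from 40.9% in miR-301a-5p and miR-340-3p to 76.2% in miR-6765-3p, with a median of 45.5%. The median was 47.6% over the 206 of 231 measured miRNAs that have a RefSeq sequence. The 7 therefore held both GC-poor and GC-rich miRNAs. They ranged from 19 bases in miR-1261 to 23 in miR-139-5p, and 4 of the 7 began with U, against 97 of the 206.

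Library totals were lower with longer exposure, with 1045482 counts for untreated cells, 966943 for 3 min and 615645 for 5 min, so the 5 min values of scarce members rest on few reads. In bulk RNA, fewer cells that hold a miRNA and less of it per cell cannot be told apart. Levels are given as CPM, read counts scaled to a common library size with TMM factors. A single count was worth 0.956, 1.04 and 1.61 CPM in that order. All 7 members passed the filter of a mean of 20 counts, as did 231 miRNAs in all. Among melanocytic markers, miR-204-5p had 2608, 2535 and 1257 counts and miR-211-5p 128, 97 and 65, while the other 4 of the 6 were at 0 in every library. Markers of epithelial cells summed to 13, 21 and 38 counts, of muscle to 1, 3 and 15, and of blood to 5, 12 and 5. The liver marker, miR-122-5p, had 114, 117 and 76 counts. Their part in the results was not tested.

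After 5 min, 6 of the 7 were at least 1.5-fold lower than in the control, where 11.7% of all measured miRNAs were, and 3 of the 7 at least 2-fold lower, against 3.46%. Scaling by TMM or by DESeq2 size factors over all listed miRNAs brought 5 of the 7 past 2-fold. After 3 min, 3 of the 7 were at least 1.5-fold lower than in the control (5.19% of all measured) and 1 at least 2-fold (0.866%). From 3 to 5 min, 4 were at least 1.5-fold lower (8.66% of all measured) and 2 at least 2-fold (0.866%). Since these ratios chose the members, the excess over the background is built in. Together the 7 held 0.347% of the counts in untreated cells, 0.263% at 3 min and 0.182% at 5 min. They were not the 7 lowest: 21 other miRNAs were at least 1.5-fold lower after 5 min than in the control.

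**Figure D1:**
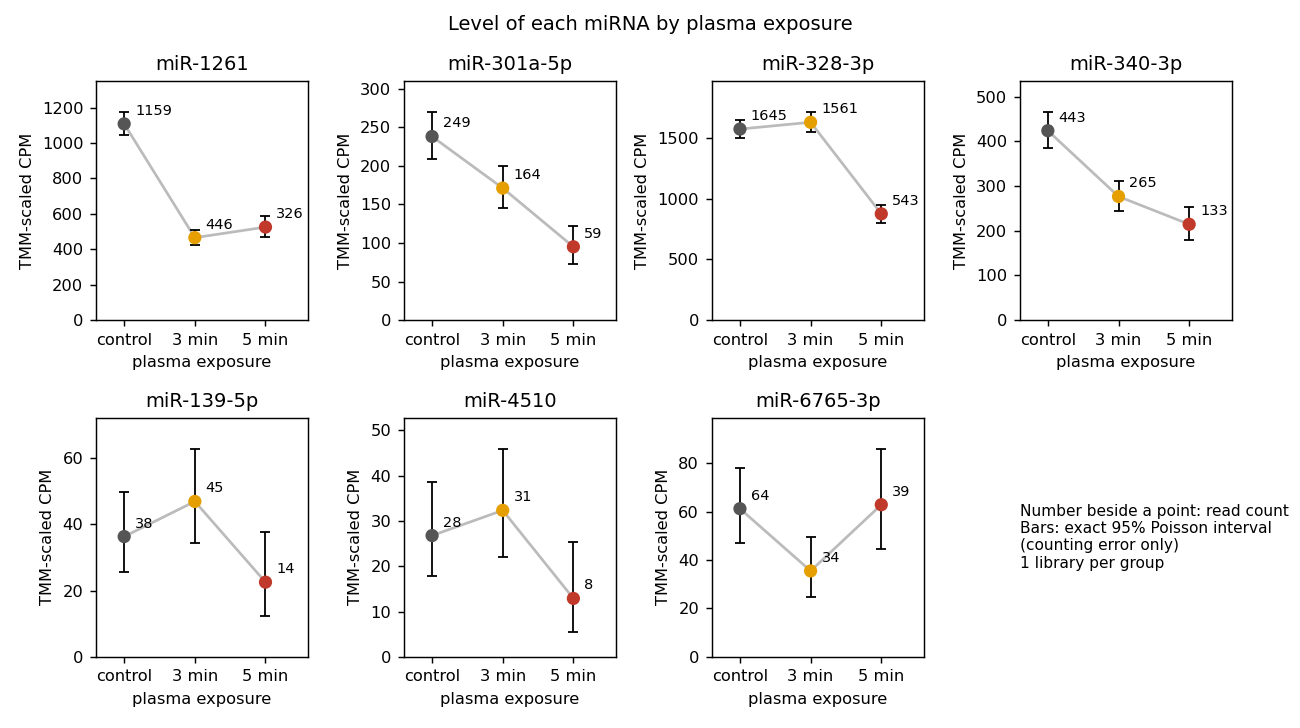
TMM-scaled CPM of each of the 7 miRNAs in the control, 3 min and 5 min libraries, with exact 95% Poisson intervals and the read count beside each point. miR-301a-5p and miR-340-3p step down at both exposures, miR-328-3p, miR-139-5p and miR-4510 are lowest after 5 min with no lower value after 3 min, and miR-1261 and miR-6765-3p are lowest after 3 min.

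The members did not share 1 course along the exposure. The step to 3 min had an interval below 1 for 4 of the 7 (14.3% of all measured) and the step from 3 to 5 min for 5 (24.7%). Both steps lay below 1 for 2 of them, miR-301a-5p and miR-340-3p (6.49%). For 5 min over control the interval was below 1 for 4 of the 7 (26.0%).

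miR-301a-5p had 249 counts in the untreated library, 164 at 3 min and 59 at 5 min, or 238, 171 and 95.04 CPM. Each library lay below the one before it, and the 3 counting intervals did not overlap. The log2 ratio was -0.48 (-0.77 to -0.19) for 3 min over control and -0.85 (-1.30 to -0.41) for 5 min over 3 min. Over the whole exposure it was 2.505-fold lower (1.88 to 3.39), and 2 of the 231 measured miRNAs ranked lower.

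MIR301A (chr17:59151136-59151221, minus strand, GRCh38) lies in an intron of SKA2, which encodes a spindle and kinetochore protein, on the host's strand. The hairpin is 547 bases from the nearest annotated exon upstream and 4.09 kb from the gene's outermost start. It is shown with the member arm in capitals, because both arms were counted.
MIR301A: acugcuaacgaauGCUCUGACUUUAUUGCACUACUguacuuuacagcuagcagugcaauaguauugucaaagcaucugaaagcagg

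The 3p arm, miR-301a-3p, carries the seed of the miR-130 family and is the arm most often studied. It had 13 counts in the untreated library, 4 at 3 min and 1 at 5 min. The 5p arm therefore held 95.04% of the hairpin's counts in untreated cells (91.7 to 97.3), 97.6% at 3 min (94.0 to 99.3) and 98.3% at 5 min (91.1 to 99.96), and these intervals overlapped. miR-301a-3p, which the choice of members did not use, had a log2 ratio of -2.95 (-8.36 to -0.21) for 5 min over control, an interval set by its single count. MIR454, 13.3 kb away on the same strand and in the same gene, had 0 counts on both arms in all 3 libraries. The upper interval bounds for each arm were 3.53, 3.85 and 5.94 CPM. In the rest of the seed family of miR-301a-3p, miR-130a-3p had 82, 53 and 56 counts. Its log2 ratios were -0.50 (-1.03 to 0.01) for 3 min over control, 0.20 (-0.31 to 0.71) for 5 min over control and 0.71 (0.14 to 1.28) for 5 min over 3 min. At that last step the interval of miR-130a-3p lay above 0. Its seed relative miR-301a-3p had -1.37 (-7.00 to 1.96) there, on 1 count against 4, an interval that included 0. miR-130b-3p had 3, 4 and 1 counts, and miR-301b-3p was at 0 throughout.

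miR-340-3p had 443 counts in the untreated library, 265 at 3 min and 133 at 5 min, or 424, 276 and 214 CPM. The control was highest, and the intervals of 3 min and 5 min overlapped. The step to 3 min had a log2 ratio of -0.62 (-0.84 to -0.39) and the step from 3 to 5 min -0.37 (-0.68 to -0.06). After 5 min it was 1.98-fold lower than in the control (1.62 to 2.42), and 8 of the 231 ranked lower.

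MIR340 (chr5:180015303-180015397, minus strand) lies in an intron of RNF130, a RING-finger gene, on the host's strand, 56.8 kb from its outermost start. Its 5p arm is known as a repressor of MITF, the pigment-cell transcription factor, in melanoma cells. The hairpin is shown with miR-340-3p in capitals, as the only one of the 7 in which both arms passed the count filter.
MIR340: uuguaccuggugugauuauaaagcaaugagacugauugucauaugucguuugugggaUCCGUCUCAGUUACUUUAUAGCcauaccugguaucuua

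miR-340-5p, not used to choose the members, had 4145 counts in the untreated library, 2830 at 3 min and 1775 at 5 min. Its log2 ratio was -0.42 (-0.49 to -0.36) for 3 min over control and -0.47 (-0.55 to -0.39) for 5 min over control, so both arms stood below the control at both exposures. Between 3 and 5 min miR-340-5p had a log2 ratio of -0.05 (-0.13 to 0.04), an interval that overlapped that of miR-340-3p. The share of the hairpin's counts on miR-340-3p was 9.66% in untreated cells (8.82 to 10.5), 8.56% at 3 min (7.60 to 9.60) and 6.97% at 5 min (5.87 to 8.21). The 5 min interval lay below that of the control and overlapped that of 3 min. This share uses no scaling between libraries. Its numerator, miR-340-3p, was chosen for low values in these libraries, so a lower share is partly built in.

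A lower level at 5 min with none at 3 min was the course of miR-328-3p, miR-139-5p and miR-4510. miR-328-3p, known as a repressor of the drug efflux transporter ABCG2, was the most abundant member. It had 1645 counts in the untreated library, 1561 at 3 min and 543 at 5 min, or 1573, 1629 and 875 CPM. The 5 min library stood apart from the other two. For 3 min over control the log2 ratio was 0.05 (-0.05 to 0.15), whose sign changed with the scaling. Between 3 and 5 min it was -0.90 (-1.04 to -0.75), a 1.86-fold lower level (1.69 to 2.06), and 3 of the 231 ranked lower.

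MIR328 (chr16:67202321-67202395, minus strand) lies within ELMO3, a gene for an engulfment and motility protein, but on the opposite strand. It sits in a 112-base intron, 1 base from the exon at the right end and 36 from the one at the left. If the authors' counting ignored strand, ELMO3 fragments could be counted with it. The opposite arm, miR-328-5p, had 0 counts in all 3 libraries, so the member held all 1645, 1561 and 543 counts of the hairpin, with a lower bound on its share of 99.8%, 99.8% and 99.3%.

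miR-139-5p, described as a repressor of the growth-factor receptor IGF1R in tumour cells, had 38 counts in the untreated library, 45 at 3 min and 14 at 5 min, or 36.3, 46.9 and 22.6 CPM. Its 5 min value was the lowest, but its interval overlapped that of the control. The log2 ratio was -0.69 (-1.69 to 0.23) for 5 min over control, 0.37 (-0.29 to 1.03) for 3 min over control and -1.06 (-2.04 to -0.17) for 5 min over 3 min. At this depth a 5 min difference from the control was not detectable. MIR139 (chr11:72615063-72615130, minus strand) lies in an intron of PDE2A, a cyclic-nucleotide phosphodiesterase gene, on the host's strand. miR-139-3p had 2, 2 and 1 counts, so the 5p arm held 38 of 40, 45 of 47 and 14 of 15 counts of the hairpin, with lower bounds on its share of 83.1%, 85.5% and 68.1%.

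miR-4510 had 28 counts in the untreated library, 31 at 3 min and 8 at 5 min, or 26.8, 32.3 and 12.9 CPM. The 5 min value was lowest, and its interval of 5.56 to 25.4 CPM overlapped the control's 17.8 to 38.7. The log2 ratio was -1.05 (-2.40 to 0.12) for 5 min over control and 0.27 (-0.51 to 1.06) for 3 min over control. The 5 min over 3 min value was -1.33 (-2.66 to -0.17), the lowest of all 231 in that comparison, on 8 counts against 31. MIR4510 (chr15:35926856-35926923, plus strand) was the only member hairpin in no annotated gene.

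As the sequences above show, miR-4510 matches let-7c-5p at all but 2 of 22 bases. The substitutions are G6U, within the seed, and A13U, each with the base of miR-4510 first and the position counted from its 5′ end. let-7c-5p had 23690 counts in the untreated library, 20021 at 3 min and 11455 at 5 min. For each 1000 counts of let-7c-5p there were 1.18 of miR-4510 in untreated cells (0.785 to 1.71), 1.55 at 3 min (1.05 to 2.20) and 0.698 at 5 min (0.301 to 1.38). Those intervals overlapped in every pair. How many mismatches the authors' alignment allowed is not given in the sources used here, so reads of let-7c-5p with errors may be among the counts of miR-4510, and their part was not tested. Among the other 6 members, none had a listed miRNA closer than 6 single-base edits, over the 2281 with a RefSeq sequence.

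A lower level at 3 min with no further lowering at 5 min was the course of miR-1261 and miR-6765-3p. At 5 min miR-1261 was still below the control, while miR-6765-3p was level with it. miR-1261 had 1159 counts in the untreated library, 446 at 3 min and 326 at 5 min, or 1108, 465 and 525 CPM. Both exposed libraries stood far below the control and their intervals overlapped each other. For 3 min over control the log2 ratio was -1.25 (-1.41 to -1.09), the lowest of the 231. For 5 min over control it was -1.08 (-1.26 to -0.90), and for 5 min over 3 min 0.17 (-0.04 to 0.38).

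MIR1261 (chr11:90869121-90869202, minus strand) lies within DISC1FP1, a non-coding transcript gene, but on the opposite strand and 5424 bases from its nearest exon. It has 1 annotated arm, so no arm share can be given. The 19 bases of the mature sequence also occur in a GENCODE transcript of AC016582.1, a transcribed pseudogene (chr19:37823722-37855215, minus strand). Fragments of that transcript could be counted as miR-1261, and their part was not tested. The mature sequences of the other 6 members occurred in no GENCODE transcript other than their own hairpin.

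miR-6765-3p had 64 counts in the untreated library, 34 at 3 min and 39 at 5 min, or 61.2, 35.5 and 62.8 CPM. The 3 min library was lowest, and the 5 min library stood at the level of the control. The log2 ratio was -0.79 (-1.43 to -0.16) for 3 min over control, 0.82 (0.12 to 1.53) for 5 min over 3 min and 0.04 (-0.58 to 0.63) for 5 min over control, a value whose sign changed with the scaling. miR-6765-3p thus goes against the description of a miRNA that falls with exposure: its raw counts were lower at 5 min than in the control, 39 against 64, but so was the depth. A course at least 1.5-fold lower at 3 min and at least 1.5-fold higher again at 5 min was seen for 1.73% of the 231, namely miR-6765-3p, miR-424-5p, miR-1237-5p and miR-148a-3p, the last 3 named after their values were seen. Their 3 min counts were 34, 24, 28 and 17 in that order. Both ratios share the 3 min library, so a low count there alone would give both parts of the course.

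The MIR6765 hairpin (chr14:105150778-105150864, minus strand) takes up the whole of an 87-base intron of JAG2, a Notch ligand gene, on the host's strand, with 0 bases between it and the exon on each side. A hairpin that is itself a spliced intron is known as a mirtron and can be made without the Drosha step. Its sequence is shown for that reason, with the member in capitals at the intron's 3′ end.
MIR6765: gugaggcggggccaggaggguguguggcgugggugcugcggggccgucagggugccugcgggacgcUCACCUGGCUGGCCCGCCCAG
The hairpin begins with the bases GU and ends with AG, as spliced introns usually do. miR-6765-5p had 0 counts in all 3 libraries.

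**Figure D2:**
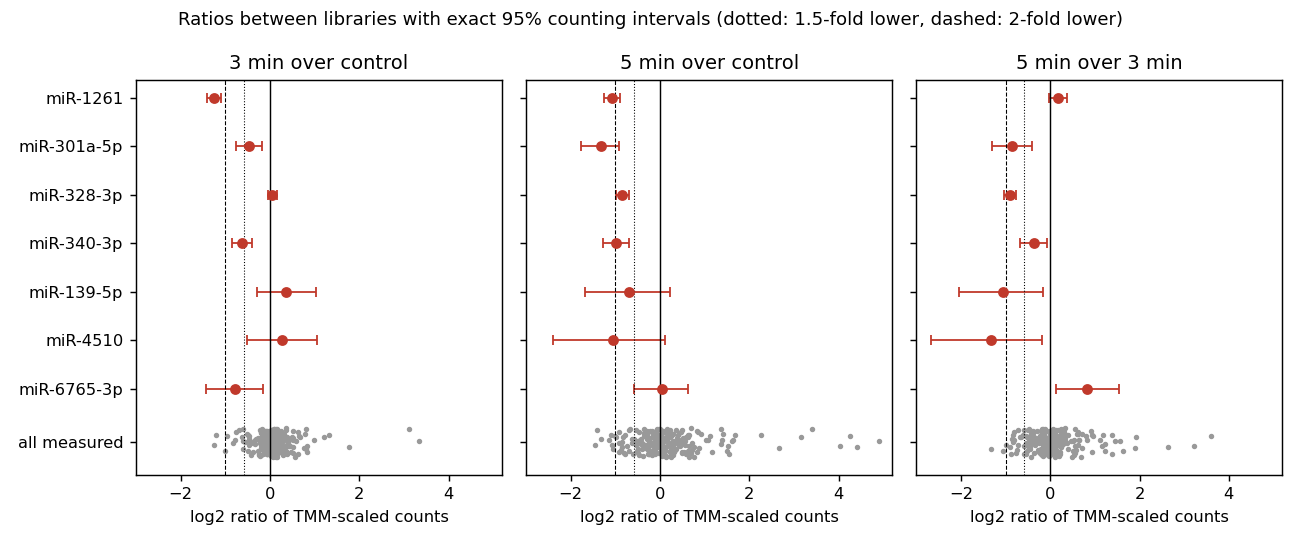
Log2 ratios of the 7 miRNAs for 3 min over control, 5 min over control and 5 min over 3 min, with exact 95% counting intervals, above 1 grey point for each of the 231 measured miRNAs. Intervals are widest for miR-4510 and miR-139-5p, with 8 and 14 counts after 5 min, and the lowest ratio moves from miR-1261 at 3 min over control to miR-4510 at 5 min over 3 min.

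Across the 7 loci, 4 hairpins lay in introns on the strand of the host gene, 2 in introns of a gene on the opposite strand and 1 in no annotated gene. The members with a host on their own strand were spread over all 3 courses: miR-301a-5p and miR-340-3p were lower at both steps, miR-139-5p was lowest at 5 min and miR-6765-3p at 3 min. The courses of miR-139-5p and miR-6765-3p rest on few reads, with 14 counts at 5 min and 34 at 3 min. A relation between host and course was not tested. MIR1261 and MIR139 share chromosome 11 but lie far apart. No other hairpin with a listed miRNA lay within 50 kb of any of the 7 except MIR454.

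**Figure D3:**
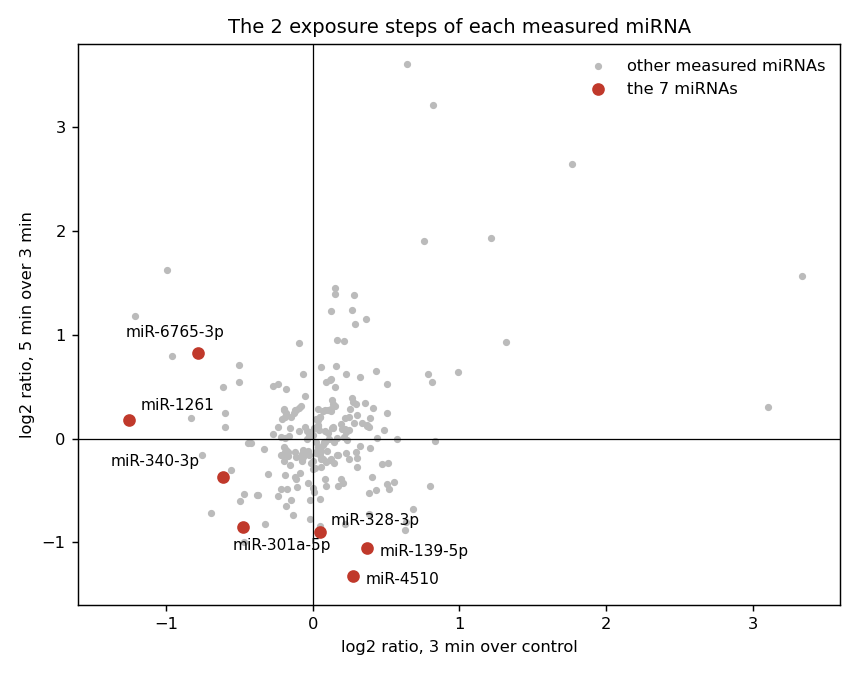
Each point is 1 of the 231 measured miRNAs, with its log2 ratio for 3 min over control on the x axis and for 5 min over 3 min on the y axis, and the 7 miRNAs in red. The axes share the 3 min library. The 7 lie along the lower and left edges, with miR-1261 at -1.25 on the x axis and miR-4510 at -1.33 on the y axis.

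The median log2 ratio of the 7 was -0.98 for 5 min over control, -0.48 for 3 min over control and -0.85 for 5 min over 3 min, where all measured miRNAs had 0.05, 0.05 and 0.02. The 5 other miRNAs nearest to the members' median pair of ratios to the control, by Euclidean distance over the 3 libraries, were miR-503-3p, miR-27b-5p, miR-125b-1-3p, let-7a-3p and let-7b-3p, at distances of 0.02 to 0.15. Of these, all but miR-503-3p are minor arms, meaning the arm of a hairpin with fewer counts over the 3 libraries, as is miR-340-3p.

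Minor arms other than the members were at least 1.5-fold lower after 5 min than in the control in 10 of 58 cases, or 17.2%. Major arms were so in 4 of 113, or 3.54%, and all measured miRNAs in 11.7%. At least 1.5-fold higher were 7 of the 58 minor and 17 of the 113 major arms. The fold cut takes no account of counting error, which is wider for scarcer arms. The major arms counted were incomplete. They left out abundant arms whose partner's name carries a hairpin number, as miR-7-1-3p does for miR-7-5p. Of those left out, miR-7-5p (-0.64), miR-129-5p (-0.61) and miR-128-3p (-0.60) were also at least 1.5-fold lower. Others were higher, such as miR-16-5p (0.50) and miR-19b-3p (0.75). The size of the gap between the 17.2% and the 3.54% also depended on the scaling. TMM over all listed miRNAs gave 13 of 58 minor and 13 of 113 major arms, and DESeq2 size factors over them 14 and 14. The other 3 scalings gave 10 minor arms and 4 or 5 major arms. After 3 min the counts were 2 minor and 3 major arms. The median log2 ratio of minor arms for 5 min over control was -0.04, against 0.09 for major arms.

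The 5 minor arms whose 5 min interval lay lowest were miR-125b-1-3p, let-7a-3p, miR-23b-5p, miR-27a-5p and let-7b-3p. For miR-125b-1-3p, the share of the counts of both arms was 7.57% in untreated cells (7.33 to 7.82), 5.37% at 3 min (5.16 to 5.59) and 3.96% at 5 min (3.72 to 4.21). For let-7a-3p it was 3.34%, 2.47% and 1.95%, and for miR-27a-5p 7.49%, 6.72% and 4.71%. The shares of miR-23b-5p were 2.01%, 1.47% and 0.713%, and those of let-7b-3p 1.79%, 1.21% and 1.19%. As with miR-340-3p, all 5 shares had lower values after each step. Those 5 were picked for their low 5 min ratios, and miR-340-3p was a member chosen for low values. The share of let-7b-3p was about level from 3 min (1.01 to 1.44) to 5 min (0.918 to 1.52). For miR-23b-5p the intervals of neighbouring exposures overlapped, and only the control (1.55 to 2.55) and 5 min (0.390 to 1.19) stood apart. Their 5p or 3p partners lay near the control after 5 min, with log2 ratios of -0.11 (-0.13 to -0.08) for miR-125b-5p, -0.12 (-0.16 to -0.09) for let-7a-5p, 0.05 (0.01 to 0.08) for miR-27a-3p, 0.05 (-0.03 to 0.13) for miR-23b-3p and -0.27 (-0.32 to -0.22) for let-7b-5p. miR-125b-5p and let-7a-5p are also made from other hairpins, so their counts are not of 1 hairpin alone.

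**Figure D4:**
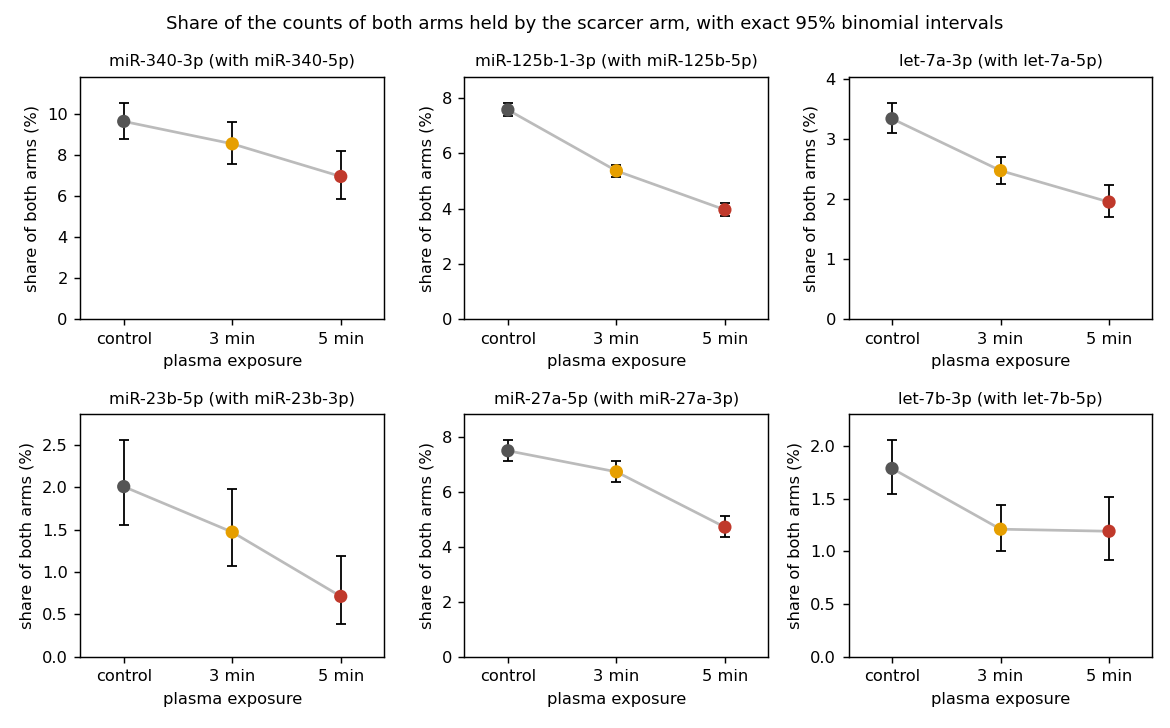
Share of the counts of both arms held by the scarcer arm in the control, 3 min and 5 min libraries, with exact 95% binomial intervals, for miR-340-3p and for the 5 minor arms with the lowest 5 min intervals. The share of miR-340-3p is 9.66%, 8.56% and 6.97%, and each of the other 5 is lowest after 5 min. For let-7b-3p the 3 min and 5 min shares are about level.

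Of the 7, 3 have a number of at least 1200 in their name and were annotated later: miR-1261, miR-4510 and miR-6765-3p. The other measured late-numbered miRNAs leaned the other way after 5 min: 15 of 34 were at least 1.5-fold higher than in the control and 4 at least 1.5-fold lower, with a median log2 ratio of 0.29. Among 190 earlier-numbered ones, 25 were higher and 17 lower by that measure, with a median of 0.05.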

How the data were processed

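Small RNA was sequenced from 3 SK-MEL-2 libraries, 1 per group, built per the labels' protocols with a NEBNext small-RNA kit from Trizol-extracted total RNA. The authors deposited raw read counts, 1 whole number for each mature miRNA. The submitters' processing notes name edgeR, bedtools and Bowtie2 without version or role. The build, annotation, trimming, mismatches, multi-mapping and strand they used are not given here, so reads shared by similar sequences cannot be separated.

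Counts were scaled by TMM (edgeR 4.0.16, R 4.3.3) over the 231 miRNAs that averaged at least 20 counts. The factors were 1.000, 0.991 and 1.008 for control, 3 min and 5 min. Ratios carry exact Clopper-Pearson 95% intervals from the split of a miRNA's counts between 2 libraries, and levels exact Poisson intervals. Both cover counting error only, and PCR copies are not independent molecules. Without replicates there was no significance test, and called means at least 1.5-fold or 2-fold. For a count of 0, the upper bound of the exact Poisson interval is given. The ratio and interval calculation was checked on simulated counts with Poisson error only, scaled by library totals. That check cannot cover variation between dishes or library preparations, or the TMM scaling.

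The members and lists were chosen with earlier results of these data known. Named miRNAs were the members, their opposite arms, their locus and seed relatives, the 5 non-members nearest to the members' median pair of ratios to the control, and the 5 minor arms with the lowest upper bound for 5 min over control. Loci come from GENCODE release 29 (GRCh38) and sequences from RefSeq (GRCh38.p14). Alternatives were other scalings (DESeq2 1.42.0 size factors among them) and other count filters. Remaining steps used scipy 1.17.1, numpy 2.4.6, matplotlib 3.10.9 and pandas 2.3.3 under Python 3.11.15.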

Additional observations from a re-analysis of the deposited data

How the results depend on the processing

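Ratios of the members and some other miRNAs, medians, and counts at least 1.5-fold or 2-fold lower were recomputed under 5 other scalings and 2 other count filters. The filter of a mean of at least 50 counts gave its own TMM factors. No filter had the same factors as TMM over all listed miRNAs. Ranks, counts by interval and the remaining results were not. The median log2 ratio of the 7 miRNAs stayed negative under all of them: -1.19 to -0.97 for 5 min over control, -0.58 to -0.48 for 3 min over control and -0.98 to -0.56 for 5 min over 3 min. Of single members, miR-328-3p for 3 min over control (-0.02 to 0.05) and miR-6765-3p for 5 min over control (-0.17 to 0.05) changed sign. With a mean of at least 50 counts, 4 of the 7 were left. From 3 to 5 min, 2 members were then at least 1.5-fold lower and 0 at least 2-fold, against 4 and 2, because miR-139-5p, miR-4510 and miR-6765-3p were no longer measured. For 5 min over control, 5 members, against 3, were at least 2-fold lower with TMM or DESeq2 over all listed miRNAs and without filter. For the members, no filter repeats that TMM's ratios.

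DESeq2 size factors over all listed miRNAs moved the median log2 ratio of all measured miRNAs for 5 min over control to -0.16, against 0.05, and TMM over them to -0.12. For 5 min over control, those at least 2-fold lower numbered 8, against 16 with TMM over all listed, 17 with DESeq2 over all listed, 3 with the stricter filter and 51 with none. At 1.5-fold they numbered 27, against 42 with DESeq2 over all listed, 16 with the stricter filter and 83 with none. For 3 min over control, 2 were at least 2-fold lower, against 4 with TMM and 4 with DESeq2 over all listed, 1 with the stricter filter and 30 with none. At 1.5-fold they numbered 12, against 4 with the stricter filter and 66 with none. For 5 min over 3 min, 2 were at least 2-fold lower, against 4 with TMM over all listed, 5 with DESeq2 over all listed, 0 with the stricter filter and 38 with none. At 1.5-fold they numbered 20, against 31, 35, 6 and 76 in the same order.

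Minor arms at least 1.5-fold lower for 5 min over control numbered 10, against 27 with no filter. Major arms, incomplete as described above, numbered 4 there. They numbered 13 with TMM over all listed, 14 with DESeq2 over all listed, 1 with the stricter filter and 32 with none. For minor arms the 3 min median of 0.03 became -0.024 with TMM over all listed, -0.040 with DESeq2 over all listed and -0.054 with no filter, and the 5 min median of -0.04 became 0.034 with the stricter filter. For major arms the 3 min median of 0.07 became -0.0073 with DESeq2 over all listed. Their 5 min median of 0.09 became -0.082 with TMM and -0.12 with DESeq2 over all listed. Their median for 5 min over 3 min, 0.02, became -0.094 with TMM and -0.12 with DESeq2 over all listed. Beyond the number of miRNAs a filter admits, the cause was not tested. Arm shares use no scaling. No paired analysis was possible because each group was 1 library. Depth leaves the 5 min over control intervals of miR-139-5p and miR-4510 spanning 0.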
